A study of Mus musculus with 4 samples.

Results

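The Zic genes encode zinc finger transcription factors, and Pcbp1 chromatin immunoprecipitation sequencing (ChIP-seq) peaks near them were compared between primed epiblast-like cells (EpiLC) and naive mouse embryonic stem cells. Every deposited peak was taken whose summit, the position of highest enrichment, lay within 50 kb of the annotated body of Zic1, Zic2, Zic4 or Zic5. This gave 5 peaks of 15626, namely 2 of the 3494 EpiLC peaks and 3 of the 12132 Naive peaks. Both EpiLC peaks lay at the neighbouring genes Zic1 and Zic4. All 3 Naive peaks lay at the neighbouring genes Zic5 and Zic2. None of the 4 genes had a peak of both lists within 50 kb, as 22.4% of all protein-coding genes did. The 4 genes lie in only 2 regions, so this count does not set them apart from genes at large.

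All cells were of the mouse embryonic stem cell line E14 Tg2a. EpiLC were made from the adapted naive cells by culture on fibronectin for 48 hours in N2B27 medium with bFGF at 12 ng/ml, Activin A at 20 ng/ml and 1% KOSR. Naive cells had been adapted for 3 passages to serum-free N2B27 medium with LIF, the MEK inhibitor PD0325901 at 1 uM and the GSK3β inhibitor CHIR99021 at 3 uM. EpiLC and Naive were each represented by a single library with the Pcbp1 antibody and a single input, so no value below carries an error between cultures and no test between conditions was possible. The files hold peaks and no expression, so the cell states could not be checked by their markers. As a description, 4 of 4 primed state genes (Fgf5, Otx2, Pou3f1 and Dnmt3b) had an EpiLC peak within 50 kb and 3 of 4 had a Naive peak, against 26.3% and 58.1% of all 21887 protein-coding genes. For 5 naive state genes (Nanog, Klf4, Esrrb, Tfcp2l1 and Zfp42) the counts were 0 of 5 in EpiLC and 5 of 5 in Naive.

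Zic proteins bind DNA through a block of C2H2 zinc fingers related to that of the Gli factors, which act at the end of the Hedgehog pathway. They act early in the embryo, in the neural plate, the neural crest and the body axes, and Zic2 is also known in pluripotent cells. Pcbp1 binds C-rich single strands of RNA and DNA through KH domains. In mouse and human the family includes 2 linked pairs of genes, Zic1 with Zic4 and Zic2 with Zic5.

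The sequence of one EpiLC peak and that beside the other are given first, with a Zic start that had no peak for comparison. Windows of 300 bases around gene starts came from RefSeq on GRCm38.p6, which is also the build used for the peaks, and run from 250 bases before a start to 50 after it. Zic1, Zic4 and Zic5 were matched. All 293 bases of one EpiLC peak lay inside the window of the long non-coding RNA gene Gm40545 (chr9:91350916-91351215, plus strand), so that window is in effect the sequence of the peak, with the summit at its base 172. The second EpiLC peak ended 162 bases short of the Zic1 window (chr9:91365719-91366018, minus strand), on the side of the gene body. The Zic5 window (chr14:122465609-122465908, minus strand) held no base of a peak. Capitals mark runs of at least 4 C or at least 4 G, where a G run is a C run on the opposite strand.
Gm40545: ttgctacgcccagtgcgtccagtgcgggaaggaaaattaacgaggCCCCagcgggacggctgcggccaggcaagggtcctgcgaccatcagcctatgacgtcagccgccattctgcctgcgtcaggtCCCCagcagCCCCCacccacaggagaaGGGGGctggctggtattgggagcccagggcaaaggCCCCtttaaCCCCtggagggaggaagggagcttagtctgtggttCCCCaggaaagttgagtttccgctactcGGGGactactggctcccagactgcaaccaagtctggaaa
Zic1: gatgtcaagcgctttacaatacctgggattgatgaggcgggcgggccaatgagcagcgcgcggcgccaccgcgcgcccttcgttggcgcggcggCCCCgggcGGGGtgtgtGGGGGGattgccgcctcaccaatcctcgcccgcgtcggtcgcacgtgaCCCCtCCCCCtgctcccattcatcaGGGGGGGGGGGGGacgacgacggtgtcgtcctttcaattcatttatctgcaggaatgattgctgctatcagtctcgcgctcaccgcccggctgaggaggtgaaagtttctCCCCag
Zic5: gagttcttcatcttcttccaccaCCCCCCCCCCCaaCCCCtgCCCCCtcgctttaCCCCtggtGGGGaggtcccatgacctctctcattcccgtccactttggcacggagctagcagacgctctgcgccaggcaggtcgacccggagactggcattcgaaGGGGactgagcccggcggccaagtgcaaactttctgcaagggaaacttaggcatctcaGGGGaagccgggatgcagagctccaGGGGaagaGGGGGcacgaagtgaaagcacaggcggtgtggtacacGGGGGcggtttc

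The Gm40545 window, which holds the EpiLC peak, had 6 C runs and 2 G runs, none over 5 bases long, and a G+C content of 62.0%. The Zic1 window had 4 C runs and 3 G runs, among them a run of 13 G, with a G+C content of 65.3%. Runs of that length or longer, of either base, were found in 1.08% of the 32817 windows of the table. The Zic5 window held no peak and had 4 C runs and 6 G runs, with a longest C run of 11 bases, a length reached in 2.24% of windows. The Zic4 window (chr9:91368722-91369021, plus strand) had no C run, 4 G runs and a G+C content of 46.0%. It was set by a start at 91368972, which lay 3.57 kb from the nearest summit. That start is inside the Zic4 body, whose annotated end at 91365631 lay 228 bp from the same summit. The motif CCCC or its complement GGGG was present in 86.4% of all windows, whose median G+C content was 52.7%, so its presence separated none of these windows from gene starts at large. A match is a description of letters and does not mark a binding site.

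Zic1 and Zic4, transcription factor genes of the dorsal neural tube and cerebellum, had peaks in EpiLC and none in Naive. Zic1 (chromosome 9, 91358058 to 91365768) and Zic4 (91365631 to 91389351) overlap by 138 bp at their annotated ends. The stronger peak (91365286 to 91365556) had its summit inside Zic1, 365 bp from the Zic1 start and 228 bp outside the annotated end of Zic4. Its fold enrichment, the authors' ratio of pileup to background, was 4.15 in EpiLC (95% counting interval 2.91 to 5.75), from a pileup of 34 over a background of 7.43. This fold exceeded 74.8% of the EpiLC list, and by −log10 q, at 8.67, the peak ranked 1623 of 3494. It was thus placed higher in the list by fold than by q. The annotation used has no exons, so whether the summit is exonic or intronic was not determined.

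The other EpiLC peak at the pair (91350918 to 91351210) lay 14.3 kb from the one at the Zic1 start and 6971 bp beyond the far end of Zic1. Its fold was 2.97 in EpiLC (2.05 to 4.18), with a pileup of 31 and a −log10 q of 4.29, which ranked it 3017 of 3494. It was among the weaker EpiLC calls, above 29.3% of the list by fold. Its local background was 1.31 times the lowest in the list, while that of the Zic1 start was 1.00 times. The summit lay 79 bp before the start of Gm40545 and 141 bp inside A730094K22Rik, a lncRNA gene on the opposite strand whose outermost start is at 91351228. The body of a further lncRNA, Gm40546, also spans it. Both EpiLC peaks of the Zic1 and Zic4 region thus stood within 1 kb of annotated gene starts. The share of all EpiLC peaks that lie so close to a start was not determined, so this is a description only. The Gm40545 window held the summit itself, but it was picked because the peak lay there, so this outcome was fixed beforehand. Of all windows in the table, 1.06% held an EpiLC summit and 4.21% held a Naive summit. These shares do not measure how rare the Gm40545 case is.

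**Figure D1:**
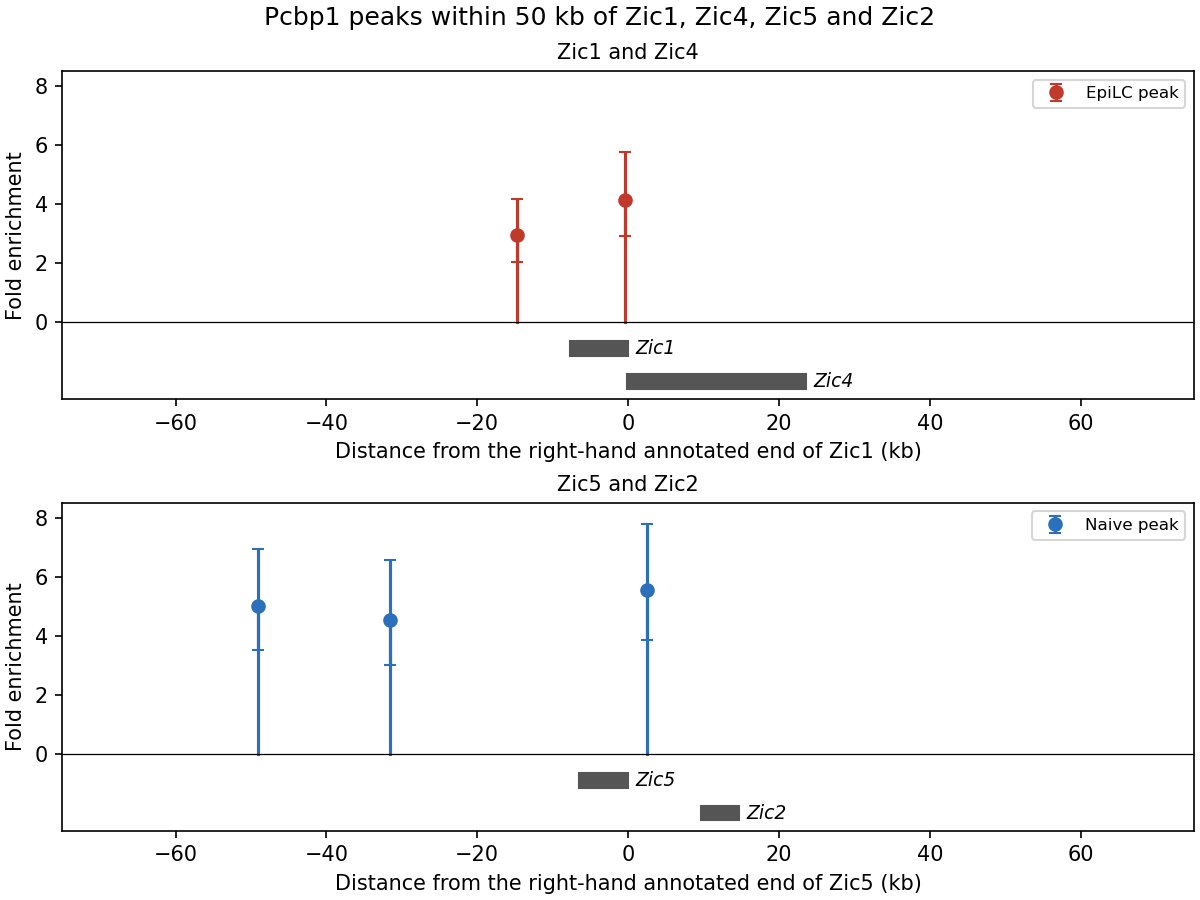
Peaks within 50 kb of Zic1, Zic4, Zic5 and Zic2, placed by the distance of the summit from an annotated gene end (horizontal axis, kb) and by fold enrichment (vertical axis). Points give the fold, bars the 95% counting interval, and grey boxes the annotated gene bodies. The 2 peaks at Zic1 and Zic4 are EpiLC peaks and the 3 peaks at Zic5 and Zic2 are Naive peaks.

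Zic5 and Zic2 showed the opposite arrangement, with 0 EpiLC peaks and 3 Naive peaks. A Naive peak within 50 kb with no EpiLC peak is common, being found at 35.7% of all protein-coding genes. The reverse, as at Zic1 and Zic4, was found at 3.91%, so these arrangements are not equally rare. Zic2, whose human counterpart is mutated in holoprosencephaly, and Zic5, a neural crest and neural fold gene in the mouse, are separated by 9725 bp on chromosome 14 (Zic5 at 122459160 to 122465658, Zic2 at 122475384 to 122480328). The strongest peak of the 5 by fold (122467981 to 122468367) lay between them, 2542 bp from Zic5 and 7184 bp from Zic2, and no annotated gene body held its summit. Its fold was 5.57 in Naive (3.86 to 7.79), with a pileup of 32 and a −log10 q of 12.4, above 76.5% of the Naive list by fold.

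The remaining Naive peaks of this region lay on the other side of Zic5, inside Gm5089, a lncRNA gene. The nearer one (122434025 to 122434289) was 25023 bp from Zic5 and 41247 bp from Zic2, with a fold of 4.53 in Naive (3.02 to 6.56) and a pileup of 26. The farther one (122416235 to 122416809) was 42573 bp from Zic5, which placed it inside the 50 kb limit for that gene, and 58797 bp from Zic2, which placed it outside. It was the widest of the 5 peaks, at 575 bp, and its fold was 5.01 in Naive (3.51 to 6.94), with a pileup of 34. The nearest EpiLC peak lay 103 kb from Zic2 and 117 kb from Zic5. Zic2 therefore had 2 Naive peaks in reach and Zic5 had 3, and both peaks of Zic2 are among those of Zic5.

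Counting intervals overlapped among all 3 Naive peaks, and likewise between both EpiLC peaks. Overlap of intervals is no test of a difference, so no order within either set was established. The intervals cover the pileup and not the background. For the EpiLC peaks the background was 9.77 at the lncRNA start and 7.43 at the Zic1 start, with pileups of 31 and 34. The folds of the 2 lists rest on different backgrounds. The lowest background, taken as genome-wide, came to 7.43 for the EpiLC list and 4.004 for the Naive list, 1.86 times as high in EpiLC. The median fold was 3.41 over all EpiLC peaks and 4.43 over all Naive peaks. Set against their own list, the 2 EpiLC peaks lay at or within its quartiles (2.87 and 4.15). Of the 3 Naive peaks, 2 lay within the Naive quartiles (3.80 and 5.41) and the one between Zic5 and Zic2 lay above.

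**Figure D2:**
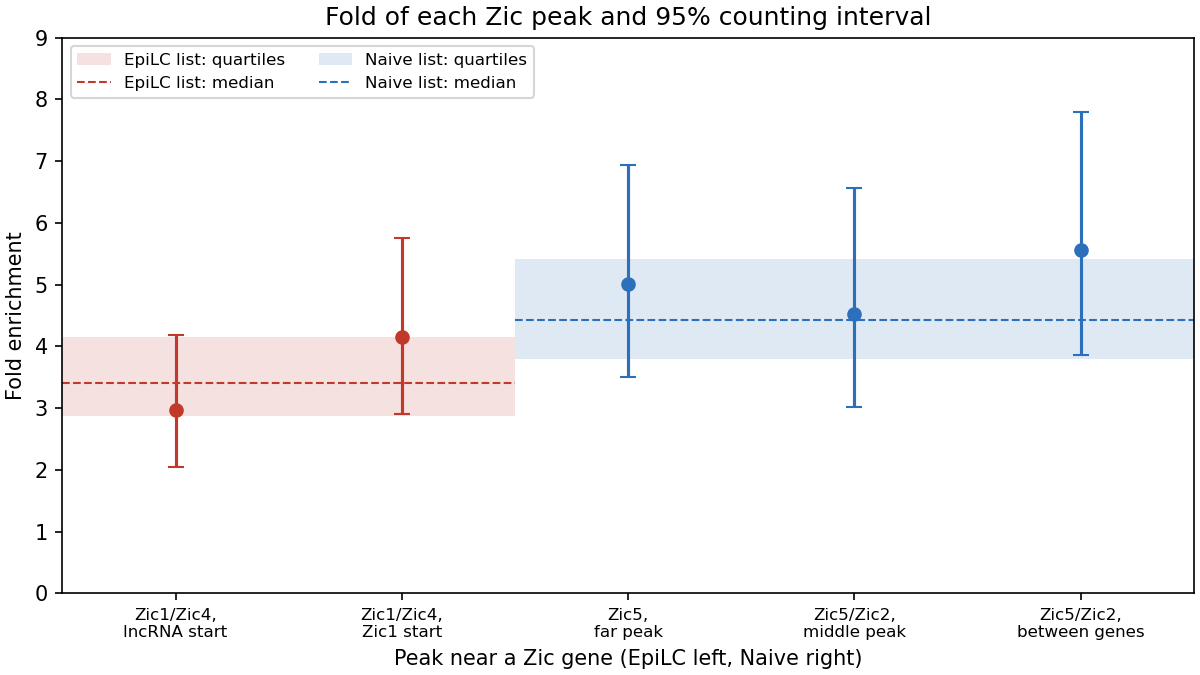
Fold enrichment of the 5 peaks near Zic genes (points) with 95% counting intervals (bars), EpiLC peaks on the left and Naive peaks on the right. Shaded bands give the quartiles and dashed lines the median of all peaks in the same list, and all 5 intervals reach into the band of their own list.

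None of the 5 peaks overlapped a peak of the other list. Over all peaks, 51.7% of the EpiLC list and 86.3% of the Naive list had no overlapping peak in the other, so an unshared Naive peak is the common case. A position without a peak has no value in the deposited lists, and the peak calls alone do not show that Pcbp1 was absent there. Where the background was at its genome-wide level, the lowest fold called was 2.85 in EpiLC and 3.00 in Naive. The 3 Naive folds at Zic5 and Zic2, from 4.53 to 5.57, were above the EpiLC level. Their local backgrounds were 1.23 to 1.49 times the lowest of the Naive list, so a level set at the lowest background does not apply to them directly. The EpiLC fold at the Zic1 start, 4.15, was above the Naive level, but its counting interval of 2.91 to 5.75 reached below that level. The EpiLC fold at the lncRNA start, 2.97, was just below the Naive level. The lists differ in background, so whether such folds would have been called in the other list was not tested.

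The Zic1 and Zic4 region was far from any Naive peak. From the summit at the Zic1 start, the nearest Naive summit was 1090 kb away on one side and 1250 kb on the other. Among 1798 EpiLC peaks with no overlapping Naive peak the median distance was 68.1 kb, and 1.22% were at least as far away as this one. The EpiLC list was sparse there too, since the next EpiLC peak beyond the pair was 1250 kb away. The Naive peaks at Zic5 and Zic2 lay closer to the other list. They were 115 to 161 kb from the nearest EpiLC summit, against a median of 192 kb for 10453 unshared Naive peaks.

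**Figure D3:**
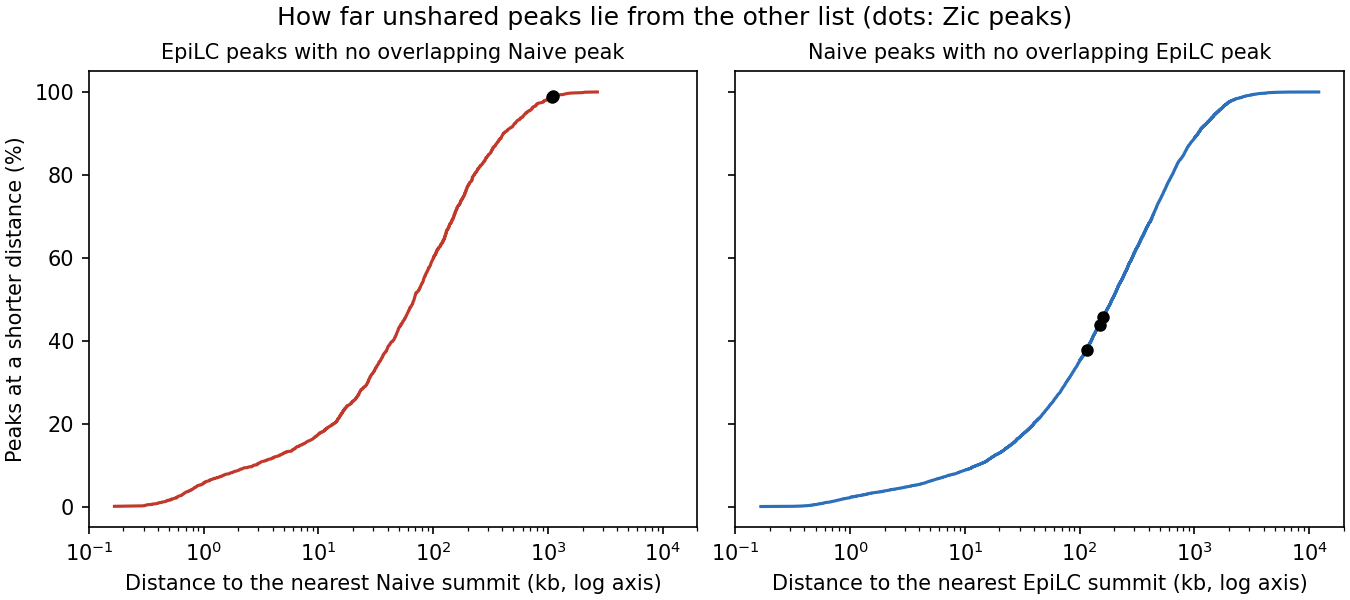
Distance from each peak with no overlap to the nearest summit of the other list (horizontal axis, kb, log scale) against the share of such peaks at a shorter distance (vertical axis, %), for EpiLC peaks on the left and Naive peaks on the right. Black dots mark the peaks near Zic genes: both EpiLC peaks sit at the far right of their curve, with Naive summits about 1100 kb away, and the 3 Naive peaks sit near the middle of theirs.

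Counted by gene, 2 of the 4 Zic genes had an EpiLC peak within 50 kb and 2 of 4 had a Naive peak. Of 21887 protein-coding genes, 26.3% had an EpiLC peak and 58.1% a Naive peak within that distance. An EpiLC peak with no Naive peak was found at 2 of 4 Zic genes, against 3.91% of all genes, and a Naive peak with no EpiLC peak at 2 of 4, against 35.7%. Zic1 and Zic4 share both of their peaks and Zic2 shares its peaks with Zic5, so each count stands on 1 region. Zic1 and Zic4 also had an EpiLC peak within 1 kb of an annotated end, as 5.61% of genes did. None of the 4 genes had a Naive peak that close, where 19.3% of genes had one. With summits inside an annotated lncRNA were 1 of 2 EpiLC and 2 of 3 Naive peaks, beside 12.0% of all EpiLC and 10.6% of all Naive peaks.

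Neural plate transcription factor genes were the list with most members resembling Zic1 and Zic4. An EpiLC peak within 50 kb with no Naive peak was found at 5 of these 11 genes, against 3.91% of all genes, and 4 more had both, against 22.4%. By EpiLC fold the leading members were Pax7 (4.82), Dlx5 (4.52), Six3 (3.88), Pax3 (3.68) and En2 (3.32). Pax7, a paired-box gene of dorsal neural tissue and muscle precursors, had 5 EpiLC peaks and 0 Naive peaks, and Six3, a forebrain gene, had 3 EpiLC peaks and 0 Naive peaks. En2, a midbrain gene, had 1 EpiLC peak beside 4 Naive peaks. No Naive peak without an EpiLC peak, the arrangement of Zic2 and Zic5, was found in this list. The list, like the others, was chosen with earlier results of these data known. Its shares are therefore a description and no independent evidence of a likeness to Zic1 and Zic4.

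Primed transcription factor genes mostly had peaks of both lists, at 8 of 10, against 22.4% of all genes. None of the 4 Zic genes did, and their peaks lie in only 2 regions. The exceptions among the primed genes were Grhl2, with an EpiLC peak of 3.21 and no Naive peak, and Sox3, with neither. The leading EpiLC folds were 9.35 near Utf1, 7.02 near Sall2, 5.94 near Tcf7l1, 4.37 near Pou3f1 and 4.26 near Foxd3. Among left-right and midline genes, EpiLC folds included 5.17 for a peak near both Lefty1 and Lefty2, 4.39 near Tgif1 and 4.01 near Ptch1. The same genes also had Naive peaks, with highest folds of 11.2 near Lefty1 and Lefty2, 10.3 near Tgif1 and 4.8 near Ptch1. Nodal, the signal of the left side, had 1 Naive peak of 9.65 and no EpiLC peak, an arrangement found at 35.7% of all genes. Of 6 Gli relatives, 2 had both (Glis2 with 6.90 in EpiLC and 13.8 in Naive, Gli1 with 5.20 in EpiLC and 4.40 in Naive), 2 had a Naive peak with no EpiLC peak and 2 had neither. The shares of all genes were 22.4% for both, 35.7% for a Naive peak alone and 37.9% for neither, so the Gli relatives lay close to genes at large.

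**Figure D4:**
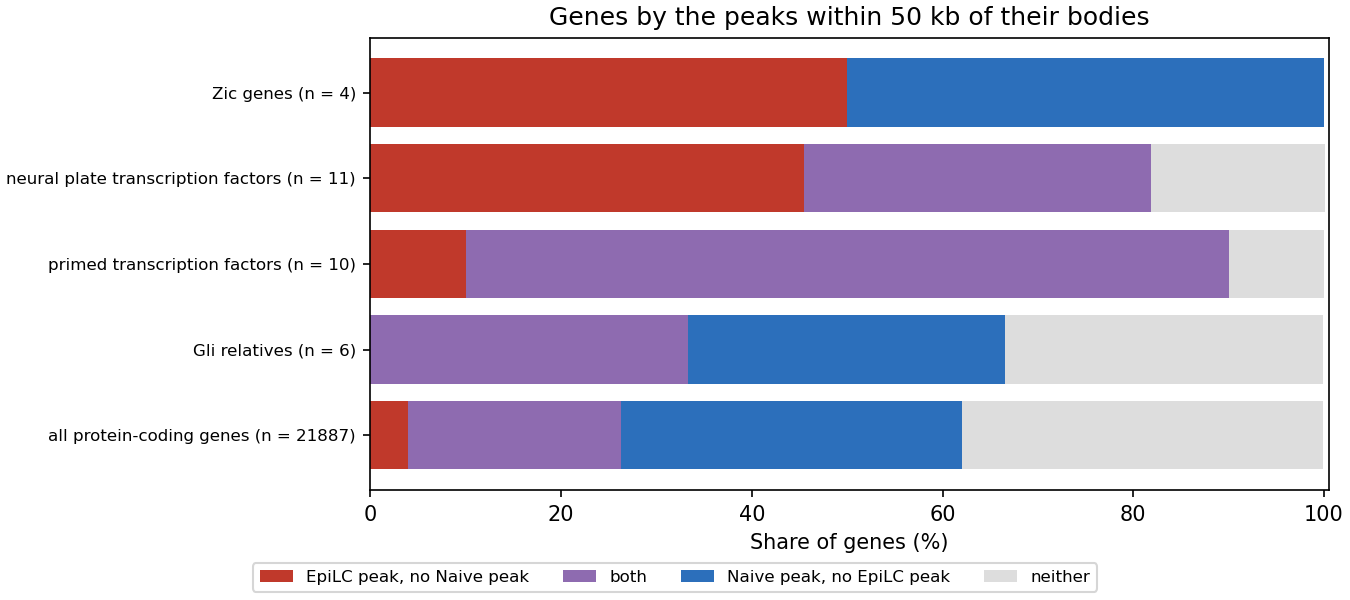
Share of genes (horizontal axis, %) by the peaks within 50 kb of their bodies, for the Zic genes, 3 other gene lists and all protein-coding genes (rows). None of the 4 Zic genes has peaks of both lists, which 22.4% of all protein-coding genes and 8 of 10 primed transcription factor genes have. Zic1 shares its peaks with Zic4, and Zic2 shares its peaks with Zic5, so the 4 genes are not independent counts.

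Genes whose counts were most like those of Zic1 and Zic4 were taken as having at least 2 EpiLC peaks without Naive overlap and 0 Naive peaks without EpiLC overlap within 50 kb, compared over the 2 peak lists. This applied to 195 other protein-coding genes (0.900% of all genes with Zic1 and Zic4 included), of which 159 had no Naive peak of any kind, as at Zic1. By EpiLC fold the first were Prkag1 and Kmt2d, neighbours with a common highest peak of 11.1, then Lrp2 (10.8), Prdm11 (10.4) and Ephx3 (10.0). That fold is the highest of all EpiLC peaks within 50 kb, those with a Naive overlap included. Prdm11 had 3 EpiLC peaks and Ephx3 had 2, and neither had a Naive peak. Prkag1, Kmt2d and Lrp2 also had Naive peaks, each overlapping an EpiLC peak. Their highest Naive folds were 18.7 near Prkag1 and Kmt2d and 17.2 near Lrp2, so these genes were unlike Zic1 and Zic4 in that respect.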

How the data were processed

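The 4 genes and the gene lists were chosen with earlier results of these data known. For each condition the authors deposited a single list of peaks, from 1 ChIP library. Among the tools in the submitters' processing notes are MACS2, Bowtie2, Picard and fastp, with GRCm38 (mm10) as build and no versions. The caller's control was not stated there. The fold enrichment in the deposited lists is the authors' ratio over the background at the summit, and the −log10 p and −log10 q values are also the authors'. Depth as a total of reads was unknown. Pileup and background were therefore solved from the deposited fold, read as (pileup + 1) / (background + 1), and from the −log10 p, read as a Poisson upper tail. A whole-number pileup matched within 0.001 for 100% of peaks in both lists. Intervals are exact Poisson intervals (95%) of the pileup and cover counting error only. Peaks were called shared at an overlap of 1 bp. Genes came from a RefSeq table of GRCm38.p6 and gene-start windows from a RefSeq promoter table. Some planned genes are not reported here, so the left-right and midline list is given without counts. Named genes were the 4 Zic genes, up to 5 members with the highest EpiLC fold per list, and the 5 most alike genes, while Grhl2, Sox3, Nodal and the lncRNA genes were named after their values were seen, and the lncRNA, distance and sequence counts were likewise added then. Python 3.11.15 with numpy 2.4.6, pandas 2.3.3, scipy 1.17.1 and matplotlib 3.10.9 was used, and the pileup and overlap steps were tested on simulated data.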

Additional observations from a re-analysis of the deposited data

How the results depend on the processing

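No paired analysis was possible because each condition had 1 ChIP library, and leaving out a replicate was not possible either. Across 8 alternatives, 46 of 52 recomputed values stayed within 1.5 times the count or inside the counting interval. Within 10 kb, 1 Naive peak was left, without EpiLC overlap, the one between Zic5 and Zic2. With only peaks of −log10 q 5 or more, or only those of fold 4 or more, 1 EpiLC peak was left, without Naive overlap, which is the one at the Zic1 start. With the Naive list shortened to 3494 peaks by −log10 q, 2 Naive peaks were left, both without EpiLC overlap, and the nearer peak in Gm5089 was lost. No alternative gave an overlap between the lists at these genes, but this outcome was fixed beforehand for the peaks within 50 kb. Their nearest summits in the other list lay 115 to 1100 kb away, and no overlap rule used here reaches that far. The counts without overlap were 2 EpiLC and 3 Naive peaks, both at 50% reciprocal overlap and with summits within 500 bp. These counts are among the 46 values that stayed and are no check of the result. With pileups of 26 to 34 at the summits, the counting intervals are wide, and no value here has a replicate.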
